A study of Homo sapiens with 12 samples.

Results

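The distal regions open in both cell lines were 12584 of the 79177 accessible regions of DU-145 cells. They were chosen by position and by presence in both tables, and the rule used no contrast between treatments. Presence in a table needed peaks in at least 3 replicates of the line, whatever the treatment. Regions could thus enter through peaks of 1 treatment alone, and the part of this filter in the directions of change was not tested. Each lay on an autosome, had every 100-bp bin more than 3 kb from any transcription start site (TSS) of GENCODE v44, and shared at least 1 bin with the accessible regions of BT-549 cells. The other 33363 of the 45947 distal autosomal regions of DU-145 cells had no bin in the BT-549 table. On the BT-549 side, the members touched 12399 of 46298 accessible regions.

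Accessibility was measured by ATAC-seq, in which a transposase inserts adapters into open chromatin. DU-145 is a castration-resistant prostate cancer (CRPC) line and BT-549 a triple-negative breast cancer (TNBC) line. Both carried tet-MUC1shRNA, an inducible hairpin with which doxycycline (DOX) silences MUC1 and so its MUC1-C subunit. Cells were treated for 7 days with 0.1% DMSO as vehicle or with DOX, with 3 replicates per group and 12 libraries in all. BT-549 medium held insulin in both groups. A label field gives the vehicle cells as untreated, while the protocol names DMSO. MUC1-C silencing and an effect of DOX itself cannot be told apart in these groups. The study's methods describe the replicates of a group as biologically independent.

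Distal accessible regions include enhancers, silencers and insulators, at which transcription factors displace nucleosomes far from the genes they act on. AP-1 dimers of JUN and FOS proteins open enhancers in epithelial and mesenchymal tumor cells, often together with TEAD and RUNX proteins. CTCF binds insulators and the anchors of chromatin loops, many of them shared between cell types. ZEB and SNAI repressors, drivers of epithelial-mesenchymal transition (EMT), bind E-box sequences.

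The windows below show 1 named region for each of several kinds of change and a region with a CTCF sequence. They are the plus strand of GRCh38 (hg38), 300 bp around the highest DU-145 bin. Capitals mark the matches, on either strand, to sequences searched as described further on, and each line lists them in order. Each carries the name of the gene whose protein-coding TSS was closest, which need not be the gene that a region acts on.
SYT14, opening in both lines, chr1:209895801-209896100, SP/KLF and steroid receptor: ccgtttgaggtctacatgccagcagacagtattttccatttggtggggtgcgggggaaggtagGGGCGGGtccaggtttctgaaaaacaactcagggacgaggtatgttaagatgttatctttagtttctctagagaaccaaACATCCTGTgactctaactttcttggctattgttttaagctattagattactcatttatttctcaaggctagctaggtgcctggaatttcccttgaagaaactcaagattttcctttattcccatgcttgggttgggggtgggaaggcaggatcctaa
CCR4, closing in both lines, chr3:32914101-32914400, steroid receptor and TEAD: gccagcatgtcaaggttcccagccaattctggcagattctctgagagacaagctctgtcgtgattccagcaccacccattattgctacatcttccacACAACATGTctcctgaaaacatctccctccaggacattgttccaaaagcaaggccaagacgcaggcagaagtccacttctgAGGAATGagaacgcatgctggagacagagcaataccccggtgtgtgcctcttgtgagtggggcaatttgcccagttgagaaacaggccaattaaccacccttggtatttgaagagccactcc
DDR2, opening in DU-145 but closing in BT-549, chr1:162605501-162605800, TEAD, AP-1, steroid receptor and AP-1: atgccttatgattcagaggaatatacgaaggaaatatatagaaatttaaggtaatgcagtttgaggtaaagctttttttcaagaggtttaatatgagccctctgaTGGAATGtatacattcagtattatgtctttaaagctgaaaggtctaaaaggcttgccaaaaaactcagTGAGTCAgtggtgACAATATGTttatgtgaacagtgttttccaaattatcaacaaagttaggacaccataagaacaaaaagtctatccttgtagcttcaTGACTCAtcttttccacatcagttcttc
PTPRC, closing in DU-145 but opening in BT-549, chr1:199274001-199274300, GATA and E-box: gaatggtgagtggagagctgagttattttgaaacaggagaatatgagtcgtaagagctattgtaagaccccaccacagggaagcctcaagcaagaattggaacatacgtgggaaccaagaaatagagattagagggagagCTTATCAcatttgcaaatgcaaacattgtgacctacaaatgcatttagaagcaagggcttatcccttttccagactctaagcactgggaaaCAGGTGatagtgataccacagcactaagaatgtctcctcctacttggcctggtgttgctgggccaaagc
SLC12A2, opening in DU-145, chr5:128217201-128217500, AP-1 and STAT: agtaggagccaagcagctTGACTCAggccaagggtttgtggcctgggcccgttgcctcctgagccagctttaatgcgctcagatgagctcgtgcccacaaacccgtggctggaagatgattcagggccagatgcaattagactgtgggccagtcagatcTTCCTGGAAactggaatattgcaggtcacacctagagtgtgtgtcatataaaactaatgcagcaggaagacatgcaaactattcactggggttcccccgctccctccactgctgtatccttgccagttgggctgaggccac
FUT8, opening in BT-549, chr14:65356401-65356700, TEAD, AP-1, E-box, E-box and RUNX: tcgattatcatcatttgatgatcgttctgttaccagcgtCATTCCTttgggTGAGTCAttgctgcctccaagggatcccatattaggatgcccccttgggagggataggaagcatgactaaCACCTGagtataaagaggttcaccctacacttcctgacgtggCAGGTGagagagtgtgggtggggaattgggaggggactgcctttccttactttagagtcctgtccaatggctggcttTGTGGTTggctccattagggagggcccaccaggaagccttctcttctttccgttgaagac
FAM240B, CTCF window, chr9:38672501-38672800, CTCF, RUNX and SP/KLF: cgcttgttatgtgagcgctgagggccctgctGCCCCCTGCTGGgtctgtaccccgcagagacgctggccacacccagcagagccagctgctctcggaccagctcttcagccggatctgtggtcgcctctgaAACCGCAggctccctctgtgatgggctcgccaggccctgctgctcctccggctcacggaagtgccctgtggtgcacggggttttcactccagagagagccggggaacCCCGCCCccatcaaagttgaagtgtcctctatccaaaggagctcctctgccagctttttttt

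The regions had a median width of 800 bp, with quartiles of 600 and 1100 bp. A median of 84.6% of their bins were in both tables, and in 5001 regions all bins were. The median distance to the nearest TSS was 12475 bp. The nearest region kept was 3001 bp from a TSS, and the farthest region left out by distance was 3000 bp away. By the position of the highest bin, 53.2% lay in introns, 42.5% between genes, 3.39% in noncoding exons or untranslated regions and 0.938% in coding exons. They were nearest to 5803 different protein-coding genes. The proto-oncogene MYC was nearest to 28 of them, the pseudokinase gene TRIB1 to 24 and the potassium channel gene KCNMA1 to 18.

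Each region was read at its highest bin in each line, as coverage scaled for library depth (normalized coverage). In BT-549 cells this was the highest of its bins that were in both tables. The scale was set in each line by itself, so these values compare within a line and not between lines. The highest bin was the same in both lines in 58.9% of the regions and lay within 200 bp in 93.3%. Summed coverage per DU-145 library ranged from 12370094 to 24001285 in vehicle and from 16337380 to 25232000 in DOX cells, and per BT-549 library from 9142900 to 13606129 and from 2502510 to 3267024. Depth thus moved with DOX in BT-549 cells, by a ratio of 4.12, and its part in the BT-549 results was not tested. In bulk samples, opening in fewer cells and less opening per cell cannot be told apart. Promoters of 8 of 8 epithelial markers had bins in the DU-145 table and 3 of 8 in the BT-549 table, and those of mesenchymal markers 5 of 7 and 7 of 7. The prostate luminal gene KLK3 had none in DU-145 cells, in BT-549 cells the hormone receptor genes ESR1 and PGR had none, and the 3 leukocyte markers had none in either line.

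In DU-145 cells, more of these regions opened than closed with DOX. Of the 12584 regions, 1223 (9.72%) opened and 410 (3.26%) closed, against a background of 9.35% opening and 4.27% closing over all DU-145 regions. A call needed a change of 2-fold or more and an adjusted p below 1e-05 in edgeR's quasi-likelihood test, adjusted over all bins by Benjamini-Hochberg. Both shares lay near the background. The opening regions rose from a median normalized coverage of 12.1 in vehicle to 45.9 in DOX cells, and the closing regions fell from 64.8 to 21.4. Of distal regions in the DU-145 table alone, 13.4% opened and 5.99% closed, and of regions within 3 kb of a TSS open in both lines 1.89% and 1.51%. The median log2 fold change was 0.07 over the distal shared regions, 0.29 over the distal regions of DU-145 alone and -0.36 over the shared regions near a TSS. With the trend of coverage with GC content removed, the first of these medians was -0.02. Without vehicle replicate 2, 676 regions opened. DESeq2 called 509 opening and 248 closing, and limma-trend 531 and 182.

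In BT-549 cells, more of them closed than opened by edgeR and limma-trend, but not by DESeq2. Of the 12584 regions, 488 (3.88%) opened and 886 (7.04%) closed, against 3.21% and 5.24% of all BT-549 regions, here for changes of 2-fold or more with an adjusted p below 0.01. The BT-549 regions set beside them were read at the highest of all their bins, and the 12584 at the highest shared bin. The opening regions rose from a median coverage of 10.5 to 34.3, and the closing regions fell from 30.1 to 8.53. The median log2 fold change was -0.24, against -0.42 over distal regions of the BT-549 table alone and 0.11 over BT-549 regions near a TSS open in both lines. With the GC trend removed, 573 opened and 655 closed, so that opening made up 46.7% of the calls in place of 35.5%. Without DOX replicate 1, 2 or 3, the number closing was 544, 588 or 487. DESeq2 called 343 opening and 344 closing, and limma-trend 318 and 627.

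**Figure D1:**
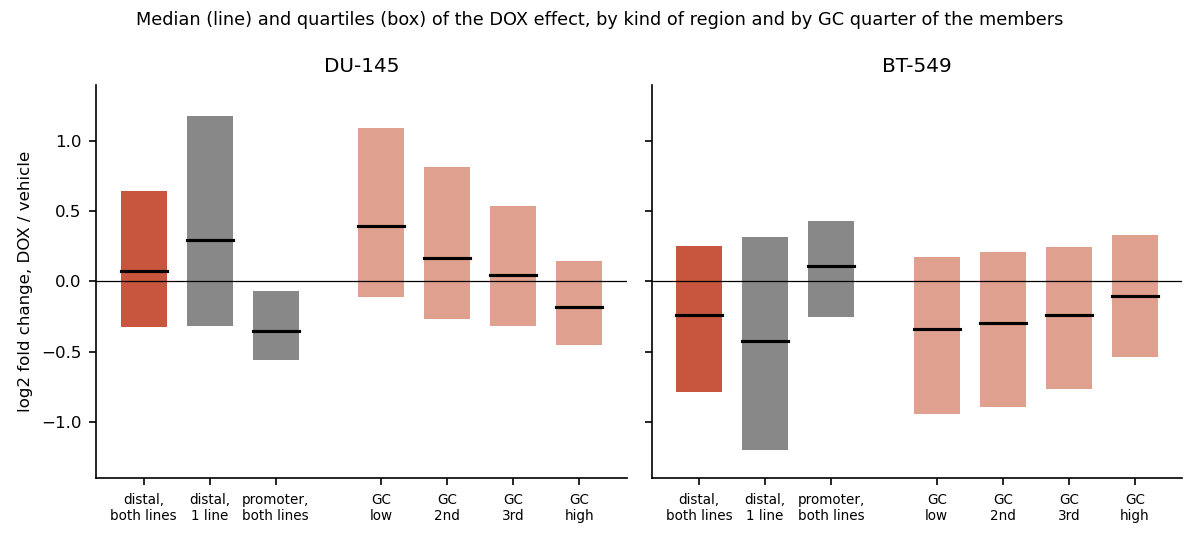
The boxes span the quartiles and the black lines mark the medians of the log2 fold change of DOX over vehicle (vertical axis) in DU-145 (left) and BT-549 cells (right), by kind of region and by GC quartile group of the 12584 distal shared regions (horizontal axis). The distal shared regions had medians of 0.07 and -0.24, and their medians fell from low to high GC content in DU-145 and rose in BT-549 cells.

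Base composition moved with the DOX effect. Of the regions below the first quartile of GC content, 15.3% opened in DU-145 cells, against 12.9% and 8.40% of those between the quartiles in order and 1.86% of those above the last. The median log2 fold change went from 0.39 below the first to -0.19 above the last quartile. In BT-549 cells the order of the medians was the reverse, with -0.34 below the first and -0.11 above the last quartile. The shares called there were lower at high GC content in both directions. Opening went from 4.76% below the first to 1.90% above the last quartile, and closing from 7.82% to 3.98%. The share of table coverage within 1 kb of a TSS also moved with DOX. With DOX it went from 64.2% ± 0.517 (SD, n = 3) to 56.6% ± 0.868 in DU-145 and from 63.4% ± 0.119 to 67.8% ± 0.428 in BT-549 libraries. The part of either in the calls was not tested. By distance, 14.6% of the regions over 50 kb from a TSS opened in DU-145 and 8.30% in BT-549 cells, against 7.48% and 2.86% of those at 3 to 10 kb.

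Few regions were called in both lines. In both, 141 regions opened (1.12%, against 0.559% of all 31661 regions open in both lines) and 91 closed (0.723%, against 0.401%). The 141 made up 11.5% of the DU-145 and 28.9% of the BT-549 opening regions, and the 91 made up 22.2% and 10.3% of the closing regions. DESeq2 called 57 opening and 32 closing in both lines, and limma-trend 59 and 27. Opposite calls were made in 62 regions that opened in DU-145 and closed in BT-549 cells (0.493%, against 0.246%), and in 8 regions that did the reverse (0.0636%, against 0.0316%). A further 9879 regions (78.5%) were called in neither line.

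**Figure D2:**
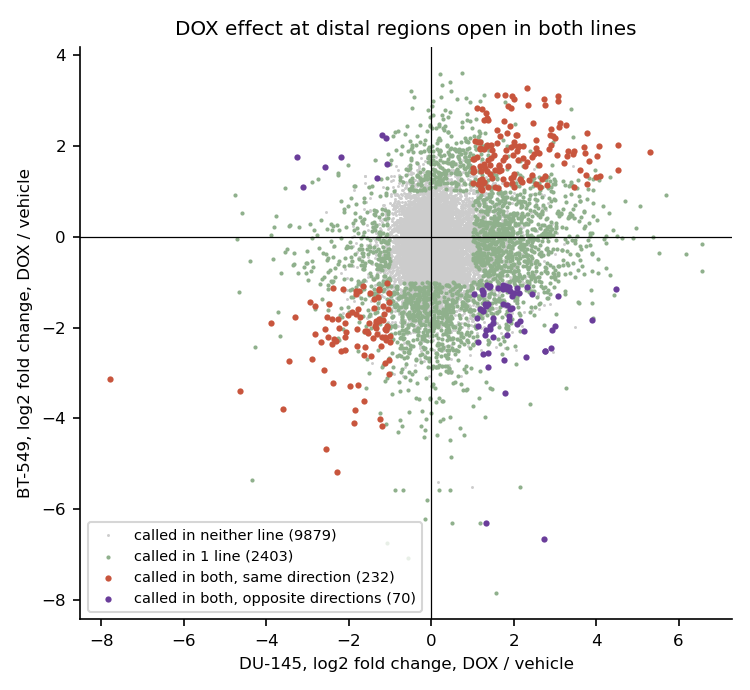
Each point is 1 of the 12584 regions, with its log2 fold change of DOX over vehicle in DU-145 cells (horizontal axis) and BT-549 cells (vertical axis), colored by its calls. The points include 141 opening and 91 closing in both lines and 62 and 8 called in opposite directions.

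Among the regions that opened in both lines, the one nearest SYT14, a synaptotagmin gene 42174 bp away, had the largest change, taking the smaller of the changes in the lines. DU-145 coverage was 5.16, 4.28 and 7.32 in vehicle libraries and 49.4, 49.7 and 43.3 in DOX libraries. BT-549 coverage was 3.43, 4.08 and 0.702 in vehicle libraries and 12.4, 18.6 and 39.1 in DOX libraries. All DOX libraries lay above all vehicle libraries in each line. The log2 fold changes were 3.08 ± 0.29 (SE, adjusted p = 7.5e-15) and 3.09 ± 0.44 (adjusted p = 1.3e-08) in edgeR's quasi-likelihood test. The region nearest ZC3H11B (chr1:219699701-219700300) lay in an intron of SLC30A10, a manganese exporter gene. It rose from 3.61, 6.20 and 2.35 to 26.6, 24.1 and 39.0 in DU-145 and from 9.52, 10.1 and 7.64 to 66.4, 79.5 and 62.9 in BT-549 cells, again with no overlap. The regions nearest TNFRSF11B, the gene of the decoy receptor osteoprotegerin, and RSPO2, a WNT agonist gene, opened by log2 values of 3.08 and 2.73 in DU-145 and 2.99 and 3.04 in BT-549 cells. The DU-145 calls of both were lost with DESeq2 and limma-trend, and that of RSPO2 also without vehicle replicate 2, at 2.28.

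The regions named among those that closed in both lines had a mean coverage of at least 20 in the higher group of each line, and some with lower coverage changed more, such as that nearest USP24 given further on. One was nearest CCR4, a chemokine receptor gene 37344 bp away. DU-145 coverage was 90.5, 89.9 and 102 in vehicle libraries and 6.05, 3.76 and 16.0 in DOX libraries. BT-549 coverage was 22.9, 23.9 and 23.7 in vehicle libraries and 5.98, 5.41 and 0 in DOX libraries. The groups were apart in both lines, with log2 fold changes of -3.46 ± 0.23 (adjusted p = 4.2e-22) and -2.73 ± 0.51 (adjusted p = 1.7e-05) in edgeR's quasi-likelihood test. The BT-549 call was lost without DOX replicate 3, the library at 0, at a log2 fold change of -2.06. The region nearest GALNT15 (chr3:16079501-16080100), a gene of O-glycan synthesis, fell from 46.6, 43.6 and 32.0 to 2.91, 4.53 and 8.16 in DU-145 and from 23.4, 22.2 and 22.97 to 4.41, 3.27 and 3.15 in BT-549 cells. The regions nearest PTPN1, a tyrosine phosphatase gene, and NCOA6, a nuclear receptor coactivator gene, closed by log2 values of -2.61 and -2.55 in DU-145 and -2.94 and -4.66 in BT-549 cells.

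**Figure D3:**
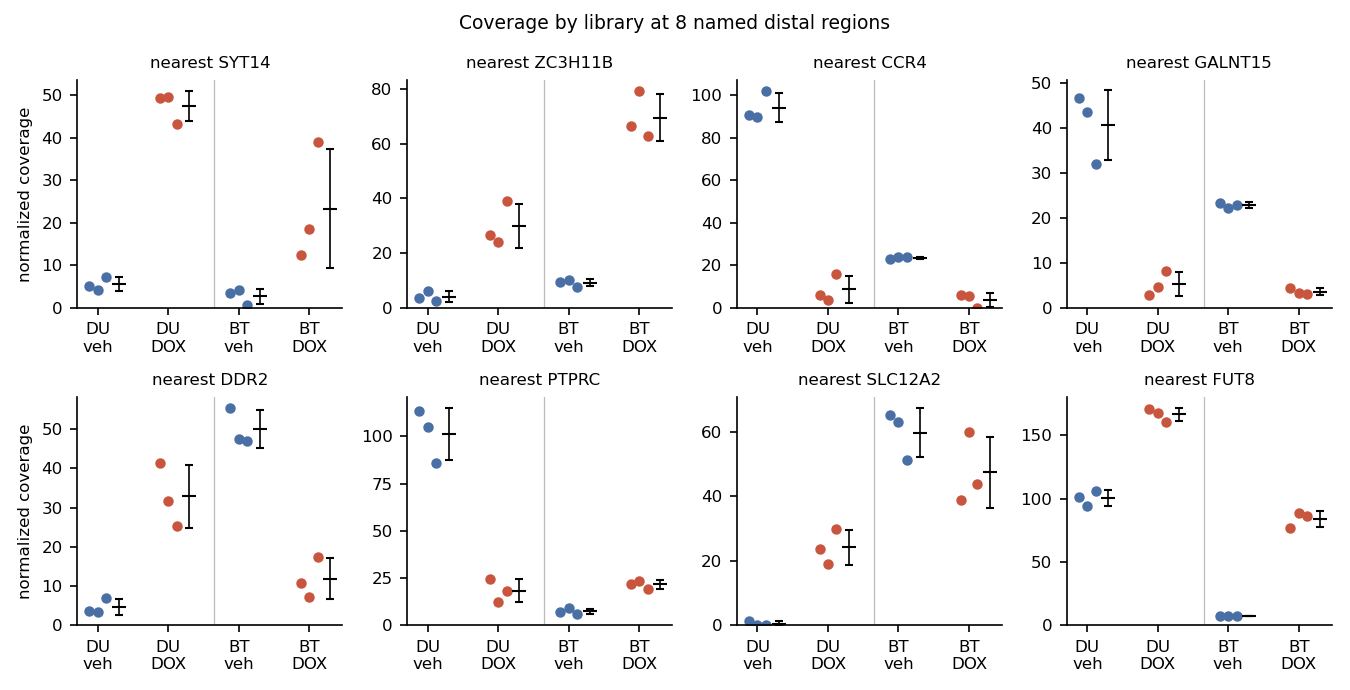
Each panel shows normalized coverage (vertical axis, from 0) at 1 named region, with 1 point per library for vehicle (blue) and DOX (red) in DU-145 (DU) and BT-549 (BT) cells and the mean ± SD of each group of 3 in black. Coverage was scaled in each line by itself. The SYT14 and ZC3H11B regions rose and the CCR4 and GALNT15 regions fell in both lines, while the DDR2 and PTPRC regions moved in opposite directions.

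Other regions moved in opposite directions. At the region nearest DDR2, a collagen receptor kinase gene 25673 bp away, DU-145 coverage rose from 3.58, 3.27 and 6.95 to 41.5, 31.8 and 25.3. BT-549 coverage fell from 55.5, 47.6 and 47.0 to 10.7, 7.26 and 17.5. The groups were apart in each line, and the difference between the DOX effects was -5.14 ± 0.47 on the log2 scale (adjusted p = 1.1e-16, edgeR's quasi-likelihood test of the interaction). The window printed above holds AP-1 sequences at 2 places. The region in an intron of MATN2 (chr8:97995101-97996000), a matrix protein gene, moved the same way, from 4.65, 2.49 and 2.90 to 23.9, 27.5 and 21.3 in DU-145 and from 35.5, 24.3 and 23.7 to 6.44, 2.51 and 6.66 in BT-549 cells. Its DU-145 call was lost with DESeq2 and limma-trend.

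The reverse pattern was found at the region nearest PTPRC, the gene of the leukocyte protein CD45, whose promoter had no bins in either line and lay 634939 bp away. DU-145 coverage fell from 113, 105 and 86.0 to 24.3, 12.2 and 18.3. BT-549 coverage rose from 6.84, 8.86 and 5.88 to 22.0, 23.5 and 19.2. The groups were apart in each line, but the BT-549 call was lost when any 1 of the DOX libraries was left out, at log2 fold changes of 1.49 to 1.59. The region nearest BOD1L1 (chr4:13701901-13702400) fell from 114, 95.5 and 98.8 to 17.5, 10.5 and 8.94 in DU-145 and rose from 13.3, 14.1 and 13.5 to 31.8, 25.9 and 29.0 in BT-549 cells. There its adjusted p of 0.0098 by edgeR's quasi-likelihood test was at the limit, and the call was lost without any 1 of the 6 BT-549 libraries, at log2 fold changes of 1.01 to 1.17.

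The 62 regions that opened in DU-145 and closed in BT-549 cells were mostly higher in BT-549 vehicle cells by the joint edgeR fit. Their median log2 difference in vehicle, BT-549 minus DU-145, was 2.26. On the scale of each line, their median coverage went from 13.4 to 42.4 with DOX in DU-145 and from 33.4 to 10.7 in BT-549 cells. Vehicle coverage was called higher in BT-549 than in DU-145 cells in 52 of the 62, and lower in 8 of the 8 with the reverse pattern. These counts share the vehicle libraries with the contrasts that chose the regions, and are a description.

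Over all 12584 regions, the DOX effect was higher in BT-549 than in DU-145 cells in 477 (3.79%, against 11.8% of all regions open in both lines) and lower in 3203 (25.5%, against 14.0%), at an adjusted p under 0.05 of the interaction in edgeR's quasi-likelihood test. The median difference was -0.62 on the log2 scale. With the GC trend removed, the counts were 673 and 2236 and the median -0.38, so that higher effects made up 23.1% of the called differences in place of 13.0%.

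Some of the largest changes in DU-145 cells were at regions near 0 in 1 group. The region nearest SLC12A2, a sodium-potassium-chloride cotransporter gene, had coverage of 1.35, 0 and 0 in vehicle libraries and 23.7, 19.0 and 29.9 in DOX libraries of DU-145 cells (adjusted p = 2.0e-12, edgeR's quasi-likelihood test). In BT-549 cells it was open in both groups, at 65.4, 63.1 and 51.2 in vehicle libraries and 38.8, 60.0 and 43.8 in DOX libraries, which overlapped. The region nearest HAS2 (chr8:121807201-121807700), a hyaluronan synthase gene, went from 0.440, 0.369 and 1.71 to 30.8, 26.2 and 25.1 in DU-145 cells. The region in introns of TMIGD3 and RAP1A (chr1:111553201-111553700) went from 0, 1.70 and 0 to 50.5, 25.7 and 42.5. No fold is given for these, since it would rest on a few fragments.

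Of the closing regions of DU-145 cells, the one nearest USP24 (chr1:55827301-55828800), a deubiquitinase gene 613023 bp away, went from 101, 89.9 and 82.9 to 0.521, 0.708 and 0. In BT-549 cells, read at a bin 900 bp away, it went from 18.7, 16.7 and 11.2 to 2.19, 0.285 and 1.86 and was called closing. At the same bin in both lines that call was lost. The region in an intron of C6 (chr5:41193701-41194100), a complement gene, went from 24.4, 28.2 and 24.8 to 1.13, 1.43 and 0.0427 in DU-145 cells, and the region in an intron of TEK (chr9:27184701-27185400), the angiopoietin receptor gene, from 35.5, 37.9 and 23.7 to 0.249, 1.42 and 1.55. Neither was called in BT-549 cells, with values of 6.69, 5.61 and 4.43 in vehicle libraries and 2.47, 11.2 and 16.7 in DOX libraries at C6 and overlap between the groups.

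In BT-549 cells, the region nearest FUT8, a core fucosyltransferase gene, opened most. Coverage was 6.89, 6.94 and 6.98 in vehicle libraries and 77.0, 88.5 and 86.6 in DOX libraries, with a log2 fold change of 3.602 ± 0.25 (adjusted p = 7.9e-27, edgeR's quasi-likelihood test). In DU-145 cells the same bin was open in vehicle, and its coverage of 101, 93.8 and 106 in vehicle libraries and 171, 168 and 161 in DOX libraries gave a log2 fold change of 0.74, under the fold limit. An intron of TENM2, a teneurin gene, held a region (chr5:167759101-167760100) that rose from 3.14, 7.19 and 3.32 to 40.5, 70.2 and 39.3 in BT-549 cells. The region nearest OGFRL1 (chr6:71410001-71410500) opened in both lines, from 3.65, 1.67 and 2.56 to 37.7, 24.0 and 22.3 in BT-549 and from 5.49, 6.76 and 10.3 to 47.1, 31.6 and 37.9 in DU-145 cells. All 3 windows hold the E-box sequence.

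The region in an intron of AOAH (chr7:36651101-36651800), the gene of an enzyme that inactivates lipopolysaccharide, went from 27.6, 26.5 and 32.8 to 1.29, 0 and 0.679 in BT-549 cells. DU-145 coverage there was 1.09, 7.71 and 3.43 in vehicle libraries and 15.5, 12.5 and 15.3 in DOX libraries, which was not called. The region nearest EPM2A (chr6:145756001-145756700), the laforin gene, went from 99.3, 91.4 and 101 to 2.96, 5.69 and 0.920 in BT-549 cells, a log2 fold change of -5.18 ± 0.39 (adjusted p = 3.7e-24, edgeR's quasi-likelihood test). It closed in DU-145 cells as well, from 19.5, 28.6 and 33.5 to 7.60, 4.41 and 4.79, a call lost with DESeq2 and limma-trend. The region nearest KCTD16 (chr5:144812801-144813100) went from 56.7, 48.9 and 52.6 to 3.97, 0.683 and 1.796 in BT-549 cells and was not called in DU-145 cells.

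The 4 regions with the highest vehicle coverage in both lines stayed under the limits of the calls. In an intron of AZIN2 (chr1:33098601-33100300), an antizyme inhibitor gene, coverage was 449, 385 and 395 in vehicle libraries and 301, 247 and 286 in DOX libraries of DU-145 and 241, 223 and 226 in vehicle libraries and 202, 277 and 194 in DOX libraries of BT-549 cells. The groups were apart in DU-145 cells, with a log2 fold change of -0.56, and overlapped in BT-549 cells. The regions in introns of RASA3, a RAS GTPase-activating protein gene, and PCNX2 had log2 fold changes of -0.69 and -0.36 in DU-145 and 0.23 and -0.34 in BT-549 cells. The region nearest PROS1 (chr3:93470301-93470900) lies by the centromere of chromosome 3, where reads of repeats can gather. Its coverage was 183, 226 and 486 in vehicle libraries and 729, 395 and 364 in DOX libraries of DU-145 and 502, 289.9 and 578 in vehicle libraries and 1973, 1386 and 1798 in DOX libraries of BT-549 cells, with adjusted p-values of 0.35 and 0.028 by edgeR's quasi-likelihood test.

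In vehicle cells, 3245 regions (25.8%, against 16.3% of all regions open in both lines) were higher in BT-549 and 2238 (17.8%, against 23.1%) lower in BT-549 than in DU-145 cells, for changes of 2-fold or more with an adjusted p below 0.01 in the joint edgeR fit. With the GC trend removed 2460 were higher and 2826 lower, and with library totals 4315 and 1655, so that the balance of directions depended on the scaling. Copy number and accessibility cannot be told apart in this contrast.

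The 300-bp windows were searched on both strands for 22 sequences. AP-1 (TGACTCA or TGAGTCA) was found in 34.8% of the regions, against 30.0% of the windows of all DU-145 regions and 10.9% of shared regions near a TSS. CTCF, a match of its core motif, was found in 8.11% (1020 regions), against 4.24% and 3.404%. TEAD (CATTCCA or CATTCCT) was found in 18.7%, against 15.9% of all windows, and RUNX (TGTGGTT or TGCGGTT) in 11.2%, against 9.16%. The SNAI/ZEB E-box (CAGGTG) was found in 22.3%, against 26.6%. SP/KLF (GGGCGGG) was found in 6.39%, against 42.2% of shared regions near a TSS. Of the other sequences marked in the windows above, the GATA sequence, A or T followed by the letters GATAAG, was found in 5.40%, STAT in 3.96% and the steroid receptor sequence (ACANNNTGT) in 8.93%, against 6.42%, 3.57% and 8.20% of all windows. A match describes letters and is not a binding site.

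Regions with an AP-1 sequence opened in a larger share than the others in both lines and closed in a larger share in BT-549 and a smaller one in DU-145 cells, while regions with a CTCF sequence were seldom called. Of the 4321 regions with AP-1 and no CTCF sequence, 13.7% opened and 2.66% closed in DU-145 cells, and 5.69% and 9.79% in BT-549 cells. Of the 7243 with neither, the shares were 8.67% and 4.004% in DU-145 and 3.27% and 6.27% in BT-549 cells. Of the 960 with CTCF and no AP-1 sequence, they were 0.208% and 0.521% in DU-145 and 0.521% and 0.833% in BT-549 cells. The log2 fold change reached 1 in either direction in 25.6% of the AP-1 and 1.98% of the CTCF regions in DU-145 cells, and in 31.2% and 9.06% in BT-549 cells. These shares were compared with no test.

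**Figure D4:**
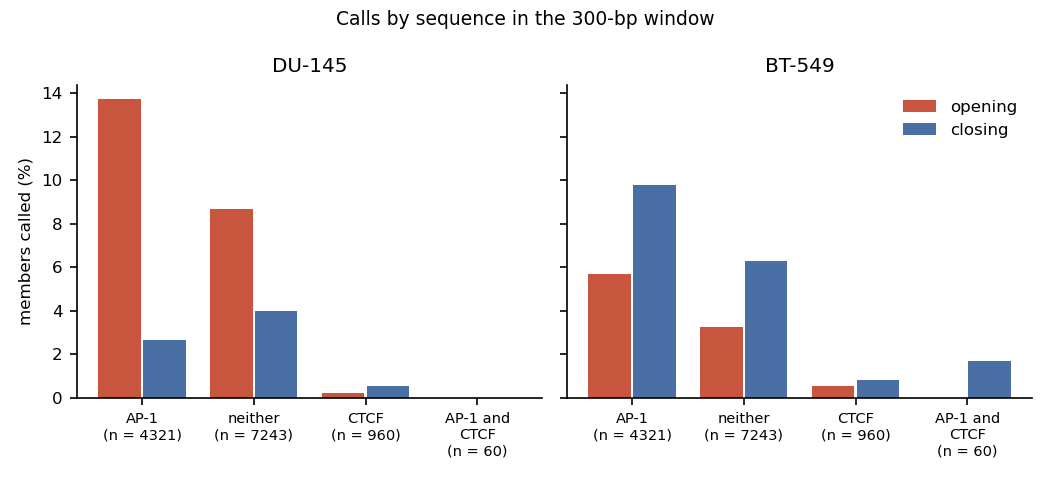
The bars give the share of regions (vertical axis, percent, from 0) called opening (red) or closing (blue) in DU-145 (left) and BT-549 cells (right), by the sequences found in the window, with the number of regions under each class. The AP-1 class has the tallest bars among the 3 largest classes for opening in both lines and for closing in BT-549 cells, and the CTCF class has the lowest among them.

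The classes differed in level as well, with median DU-145 vehicle coverage of 32.6 with AP-1, 19.2 with CTCF and 20.8 with neither. In the 4 quartile groups of DU-145 coverage, from low to high, 10.1%, 18.9%, 20.8% and 7.31% of the AP-1 windows opened in DU-145 cells, against 4.25%, 7.71%, 11.8% and 7.78% of the windows without it. AP-1 windows thus opened more often in DU-145 cells in all but the highest group. The log2 fold change reached 1 in 3.91%, 0.924%, 0.422% and 5.80% of the CTCF windows in these groups, against 31.7%, 26.1%, 23.8% and 13.1% of the others. In the 4 quartile groups of BT-549 coverage, from low to high, 0.212%, 3.23%, 6.92% and 9.40% of the AP-1 windows opened in BT-549 cells. Windows without it opened in 0.181%, 1.36%, 3.32% and 8.49%. The shares closing were 2.76%, 5.65%, 13.8% and 13.4% with AP-1, against 1.36%, 3.12%, 7.41% and 12.7%. Both were thus close in the highest group. In the 4 quartile groups of GC content, from low to high, 16.2%, 15.4%, 12.9% and 5.25% of the AP-1 windows opened in DU-145 cells, against 14.7%, 11.3%, 5.76% and 1.01% of the windows without it. As an example, the CTCF region nearest FAM240B had DU-145 coverage of 115, 81.7 and 80.6 in vehicle libraries and 60.4, 58.2 and 51.8 in DOX libraries. BT-549 coverage there was 103.1, 91.2 and 71.9 in vehicle libraries and 109, 98.4 and 86.0 in DOX libraries. The groups were apart in DU-145 cells, with a log2 fold change of -0.68 that was under the fold limit, and overlapped in BT-549 cells.

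By direction, AP-1 was in 48.5% of the DU-145 opening, 28.05% of the DU-145 closing, 50.4% of the BT-549 opening and 47.9% of the BT-549 closing regions. TEAD was in 26.4%, 14.1%, 27.7% and 23.02% of the same sets. The E-box was in 32.6% of the BT-549 opening and 12.1% of the BT-549 closing regions, and in 17.2% and 14.4% of the DU-145 ones. NKX2 (TCAAGTG) was in 11.95% of the DU-145 closing regions, against 5.75% of all 12584 and 6.74% of all windows. GATA was in 9.22% of the BT-549 opening regions, against 5.40%. The interferon-stimulated response element (ISRE) was in 7.67% and NF-kB in 1.35% of the BT-549 closing regions, against 4.79% and 0.588% of the 12584 and 3.69% and 0.616% of all windows.

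Regions nearest genes of the type I interferon response, the antiviral program, closed with DOX in BT-549 cells in several cases. Of 18 such regions nearest 11 genes, 7 (38.9%, beside 7.04% of the 12584 and 5.24% of all BT-549 regions) closed and 1 opened in BT-549 cells. In DU-145 cells none was called by edgeR, DESeq2 or limma-trend, and 6 had an unadjusted p under 0.05. The median log2 fold change was -1.92 in BT-549 cells, against -0.24 over the 12584, and 0.20 in DU-145 cells. Leaving out 1 library left 5 to 7 closing. All 7 lay within 10 kb of a TSS. An intron of MX1, an antiviral GTPase gene, held a region (chr21:41460501-41461200) with BT-549 coverage of 67.3, 85.9 and 59.5 in vehicle libraries and 4.82, 8.34 and 3.61 in DOX libraries, a log2 fold change of -3.55 ± 0.35 (adjusted p = 4.6e-16, edgeR's quasi-likelihood test). DU-145 coverage there was 21.1, 20.4 and 21.2 in vehicle libraries and 27.7, 19.6 and 15.5 in DOX libraries, which overlapped. A region in an intron of IRF1 (chr5:132479501-132480900), an interferon regulatory factor gene, fell from 50.9, 68.2 and 67.7 to 7.37, 9.28 and 2.56 in BT-549 cells. A region nearest IFI44 (chr1:78691801-78692900) opened, from 10.0, 7.05 and 9.96 to 65.5, 55.4 and 53.6. The other closing regions, named after their values were seen, were 3 nearest IFIT2, 1 more nearest IRF1 and 1 nearest RIGI, a sensor gene for viral RNA, where BT-549 coverage was 19.7, 24.8 and 14.7 in vehicle libraries and 0, 0 and 1.16 in DOX libraries.

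Several regions nearest genes of the TGF-beta pathway, a driver of EMT, opened in DU-145 cells. Of 79 regions nearest 19 genes, 17 (21.5%, beside 9.72% of the 12584) opened and 2 closed in DU-145 cells, and 7 (8.86%, beside 3.88%) opened and 3 closed in BT-549 cells. Leaving out 1 library left 10 to 16 opening in DU-145 cells, with 10 without vehicle replicate 2, and DESeq2 and limma-trend 7 each. Of the 17, 6 were nearest INHBA, the activin A subunit gene. The region 671309 bp from INHBA (chr7:41028601-41029900) rose from 30.7, 19.0 and 18.6 to 167, 121 and 146 in DU-145 cells, a log2 fold change of 2.68 ± 0.18 (adjusted p = 5.2e-22, edgeR's quasi-likelihood test). Another, 778109 bp away, rose from 6.88, 7.03 and 14.2 to 59.9, 51.3 and 43.998. BT-549 coverage of the first, 13.5, 6.23 and 8.01 in vehicle libraries and 20.9, 25.3 and 16.1 in DOX libraries, was not called. A region nearest TGFB2 (chr1:218584501-218586200), a ligand gene, opened in both lines, from 32.6, 31.9 and 30.5 to 87.2, 66.0 and 81.2 in DU-145 and, read 800 bp away, from 23.8, 18.6 and 15.9 to 106, 65.3 and 59.1 in BT-549 cells. At the same bin in both lines the BT-549 call was lost. Another one, which the list of YAP/TEAD targets named, was open in DU-145 cells in both groups, at 320.5, 312 and 278 in vehicle libraries and 298, 250.0 and 271 in DOX libraries, and opened in BT-549 cells from 18.3, 12.4 and 15.0 to 69.8, 78.0 and 48.3.

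Of 58 regions nearest YAP/TEAD targets, genes of the output of the Hippo pathway, 7 (12.1%) opened and 2 (3.45%) closed in DU-145 and 3 (5.17%) opened and 4 (6.90%) closed in BT-549 cells, beside 9.72% and 3.26% and 3.88% and 7.04% of the 12584. Without 1 library, the number opening in DU-145 cells was 2 to 7, with 2 without vehicle replicate 2, and 2 closed in BT-549 cells without any 1 of the DOX libraries. DESeq2 called 3 of them opening in DU-145 cells and 1 closing in BT-549 cells, and limma-trend 1 and 2. An intron of WWTR1, the gene of the coactivator TAZ, held a region (chr3:149579701-149580800) that rose from 20.4, 26.8 and 20.8 to 88.2, 85.2 and 75.9 in DU-145 cells. BT-549 coverage there was 16.8, 19.8 and 11.8 in vehicle libraries and 23.2, 15.8 and 18.3 in DOX libraries, which overlapped. The difference between the lines was -1.797 (adjusted p = 1.2e-04, edgeR's quasi-likelihood test of the interaction).

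Of 25 regions nearest genes of the AP-1 family and its relatives, 3 (12%, beside 9.72% of the 12584) opened in DU-145 and 3 (12%, beside 7.04%) closed in BT-549 cells. Without DU-145 vehicle replicate 2 the number opening was 1, and without BT-549 DOX replicate 2 the number closing was 1. None closed in DU-145 or opened in BT-549 cells by edgeR, DESeq2 or limma-trend, and 17 and 12 had an unadjusted p under 0.05 in either direction. In an intron of ATF3 (chr1:212595701-212596800), a stress-induced factor gene, DU-145 coverage rose from 39.0, 35.7 and 54.3 to 125, 97.4 and 100.1. At BACH1, a repressor gene, it rose from 24.8, 20.7 and 23.6 to 81.7, 52.4 and 56.4 in an intron and from 20.5, 13.0 and 21.7 to 54.3, 42.5 and 44.8 in a coding exon, and both calls were lost with DESeq2, limma-trend and without vehicle replicate 2, at log2 fold changes of 1.32 and 1.11. The closing regions, named after their values were seen, were nearest FOSL2, NFE2L2 and BACH2. The 5 regions nearest JUN had log2 fold changes of -1.49 to -0.04 in DU-145 and -1.60 to 0.89 in BT-549 cells, and their adjusted p-values by edgeR's quasi-likelihood test did not pass the limits together with the fold. The strongest had coverage of 214, 177 and 199.7 in vehicle libraries and 167, 138 and 171 in DOX libraries of DU-145 and 129, 128 and 131 in vehicle libraries and 116, 82.0 and 103.4 in DOX libraries of BT-549 cells, with log2 fold changes of -0.31 and -0.36 (adjusted p = 0.031 and 0.092, edgeR's quasi-likelihood test).

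Of the other genes named for the study, the region nearest EGR1 (chr5:138490901-138493000), an immediate early gene, went from 144.9, 141 and 142 to 74.7, 89.5 and 94.1 in DU-145 cells, a log2 fold change of -0.72 that was under the fold limit. Its BT-549 groups overlapped, at 69.3, 69.6 and 44.8 in vehicle libraries and 29.4, 56.0 and 55.5 in DOX libraries. The 2 regions nearest LY6E, a gene of a membrane-anchored protein, had log2 fold changes of -0.11 and -0.45 in DU-145 cells (adjusted p = 0.69 and 0.49, edgeR's quasi-likelihood test). In BT-549 cells they were -0.66 and -1.42 (adjusted p = 0.43 and 0.038), outside the limits.

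Of 23 regions nearest NOTCH pathway genes, 2 (8.70%) opened and none closed in DU-145 and 1 (4.35%) opened and 3 (13.0%) closed in BT-549 cells, beside 9.72% and 3.26% and 3.88% and 7.04% of the 12584. Without DOX replicate 3, 1 closed in BT-549 cells. DESeq2 and limma-trend called none closing in DU-145 cells either, and 13 had an unadjusted p under 0.05 there in either direction. The region nearest NOTCH1 (chr9:136577701-136579700), a receptor gene, rose from 24.3, 26.5 and 24.2 to 67.1, 55.5 and 49.3 in DU-145 cells, a log2 fold change of 1.15 ± 0.20 (adjusted p = 1.5e-06, edgeR's quasi-likelihood test). The call was lost without any 1 of the 3 vehicle libraries or DOX replicate 1, at log2 fold changes of 1.05 to 1.199, and with the GC trend removed, at 0.99. It was also lost with DESeq2, at 1.16, and with limma-trend, at 0.79. In BT-549 cells, read 1200 bp away, the region nearest NOTCH1 went from 5.39, 2.66 and 5.47 to 18.0, 2.85 and 12.8, with overlap. At the same bin in both lines the DU-145 call was lost, at a log2 fold change of 0.58. The region nearest HES1 (chr3:194140601-194142600), a target of NOTCH, went from 264, 219 and 232 to 189, 139.9 and 174 in DU-145 and from 56.2, 62.4 and 53.6 to 131, 115 and 109 in BT-549 cells, where it was called. Its log2 fold change of 1.03 was at the limit, and the call was lost without vehicle replicate 3 or DOX replicate 1, at 0.999 and 0.951. It was also lost with limma-trend, at 0.959, and with the GC trend removed, at 0.945. The region nearest HEY1 (chr8:79853601-79854200), another target, went from 16.0, 14.8 and 8.08 to 52.3, 45.5 and 46.4 in DU-145 and from 5.14, 4.88 and 6.99 to 7.81, 5.69 and 4.05 in BT-549 cells.

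Of 29 regions nearest NF-kB and inflammation genes, 2 (6.90%) opened and 1 (3.45%) closed in DU-145 and 1 (3.45%) opened and 4 (13.8%) closed in BT-549 cells, beside 9.72% and 3.26% and 3.88% and 7.04% of the 12584. DESeq2 called 2 closing in BT-549 cells, and without DU-145 vehicle replicate 2 the number opening there was 1. The region nearest IL6 (chr7:22717801-22719000), a cytokine gene, lay in an intron of STEAP1B and fell from 128, 127 and 128 to 19.1, 37.4 and 36.2 in BT-549 cells, a log2 fold change of -2.01 ± 0.20 (adjusted p = 7.5e-16, edgeR's quasi-likelihood test). In DU-145 cells it went from 104, 79.2 and 77.2 to 61.8, 63.7 and 78.3, with overlap. Regions nearest NFKBIZ, a regulator gene of the family, moved both ways in DU-145 cells, from 184, 151 and 149 to 65.6, 59.3 and 55.9 at one and from 18.9, 17.7 and 22.2 to 63.0, 49.9 and 60.7 at another.

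Of 68 regions nearest genes of the extracellular matrix and adhesion, 10 (14.7%) opened and 1 (1.47%) closed in DU-145 and 5 (7.35%) opened and 5 (7.35%) closed in BT-549 cells, beside 9.72% and 3.26% and 3.88% and 7.04% of the 12584. DESeq2 called 5 and limma-trend 4 opening in DU-145 cells. In BT-549 cells 1 closed without DOX replicate 1 or 3 and 3 without vehicle replicate 1, and 3 opened without DOX replicate 1 or 2. The region nearest PLAU (chr10:73898901-73900000), the urokinase gene, rose from 13.0, 14.5 and 20.7 to 60.9, 78.1 and 55.2 in DU-145 cells. Its BT-549 values of 8.07, 11.96 and 7.66 in vehicle libraries and 24.0, 21.5 and 15.6 in DOX libraries were not called. The region nearest COL1A1 (chr17:50221601-50222800), a collagen gene, fell from 127, 116 and 135 to 25.2, 25.1 and 27.4 in DU-145 cells, and the region nearest TNC (chr9:115146601-115147400), the tenascin gene, rose from 8.90, 6.47 and 4.46 to 44.4, 35.8 and 41.0.

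Of 44 regions nearest EMT factors and cell junction genes, 7 (15.9%) opened and 2 (4.55%) closed in DU-145 and 3 (6.82%) opened and 1 (2.27%) closed in BT-549 cells, beside 9.72% and 3.26% and 3.88% and 7.04% of the 12584. Without vehicle replicate 2, 4 opened in DU-145 cells, and DESeq2 and limma-trend called 3 each. The region 976955 bp from CDH2 (chr18:29154301-29155600), the N-cadherin gene, opened in both lines, from 12.8, 10.4 and 19.1 to 113, 98.2 and 95.7 in DU-145 and from 12.8, 13.8 and 16.7 to 38.9, 78.7 and 56.1 in BT-549 cells. In DU-145 cells the region nearest TWIST2 (chr2:238947901-238949200), an EMT factor gene, rose from 38.3, 28.02 and 24.7 to 142, 133 and 123, and that nearest CTNNB1 (chr3:40899201-40899800), the beta-catenin gene, from 7.13, 5.602 and 5.43 to 77.8, 63.7 and 59.2. Neither was called in BT-549 cells.

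Of 65 regions nearest stemness factors, 11 (16.9%) opened and 3 (4.62%) closed in DU-145 and 2 (3.08%) opened and 4 (6.15%) closed in BT-549 cells, beside 9.72% and 3.26% and 3.88% and 7.04% of the 12584. DESeq2 and limma-trend called 5 each opening in DU-145 cells. In BT-549 cells 1 closed without DOX replicate 1 and 2 without vehicle replicate 1, and 1 opened without any 1 of the DOX libraries. A region 445556 bp from MYC (chr8:128182801-128183800) rose from 18.8, 19.8 and 16.8 to 162, 145.2 and 154 in DU-145 cells. In BT-549 cells it went from 87.6, 82.1 and 72.3 to 129.5, 157 and 142, a log2 fold change of 0.80 that was under the fold limit. Another region, 339156 bp from MYC, went from 33.9, 27.7 and 27.7 to 146, 133 and 135 in DU-145 and from 4.22, 2.79 and 6.82 to 12.2, 18.9 and 11.6 in BT-549 cells. The region nearest KLF4 (chr9:108048901-108049800) rose from 21.8, 27.8 and 19.1 to 81.2, 88.5 and 95.3 in DU-145 cells.

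Of 59 regions nearest actin cytoskeleton and polarity genes, 1 (1.69%) opened and 4 (6.78%) closed in DU-145 and 2 (3.39%) opened and 2 (3.39%) closed in BT-549 cells, beside 9.72% and 3.26% and 3.88% and 7.04% of the 12584. In BT-549 cells 4 opened without vehicle replicate 2, and the number closing was 1 without DOX replicate 2 and 0 without DOX replicate 3. The region nearest CDC42EP3 (chr2:37802001-37803700), a CDC42 effector gene, fell from 246, 282 and 243 to 113, 115 and 84.7 in DU-145 cells. In an intron of CAPN2, a calpain gene, a region (chr1:223706101-223708500) opened in BT-549 cells from 45.6, 40.9 and 48.4 to 106, 143 and 160.2, read 400 bp from the DU-145 bin, where coverage went from 255, 279.7 and 243 to 214, 220.1 and 184. At the same bin in both lines the BT-549 call was lost. Regions nearest 1 gene share its locus, and the lists were compared with no test.

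In DU-145 cells a peak called in the single library lay in 84.9% ± 5.57 (SD, n = 3) of the regions with vehicle and 96.1% ± 1.44 with DOX. In BT-549 cells the shares were 98.9% ± 1.05 and 44.3% ± 5.11. The accessible regions were made from these peaks, so the shares are a description. Called peaks numbered 65204 to 93929 per BT-549 vehicle library and 30450 to 39837 per BT-549 DOX library, whose depth was also lower. The part of depth in the counts that follow was not tested, and they have no share over all regions beside them. By edgeR, 7.04% of the regions closed in BT-549 cells. All libraries had a peak in 2972 regions (23.6%), while 4720 (37.5%) had one in all 3 BT-549 vehicle and in no BT-549 DOX library. The reverse held in 6 (0.0477%). In DU-145 cells, 754 (5.99%) had one in all 3 DOX and in no vehicle library, and 96 (0.763%) the reverse. With the 30000 strongest peaks of each library, the means were, in the same order, 43.2%, 45.4%, 68.1% and 41.3%. The same peaks covered 75.8%, 72.5%, 83.7% and 73.9% of the shared regions near a TSS. The shares by sequence moved apart with DOX in DU-145 cells, from 54.5% to 63.3% of the AP-1 and from 29.5% to 19.8% of the CTCF regions. In BT-549 cells both were lower with DOX, at 72.6% and 48.5% with AP-1 and 64.3% and 29.1% with CTCF.

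**Figure D5:**
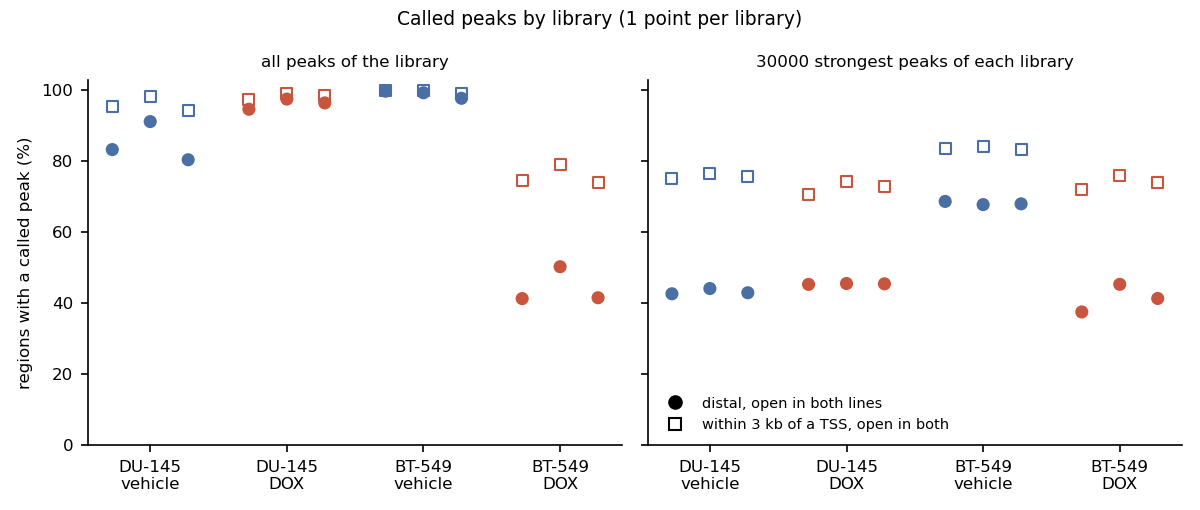
Each point is 1 library and gives the percent of regions that held a called peak (vertical axis, from 0), with all peaks of the library (left) or its 30000 strongest (right), as filled circles for the distal shared regions and open squares for shared regions within 3 kb of a TSS, in blue for vehicle and red for DOX. The 3 BT-549 DOX libraries are the lowest among the circles on the left, with a mean of 44.3%.

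Neighbouring regions were also read in pairs. Of 5311 pairs of neighbours within 50 kb, both were called in 144 in DU-145 and 121 in BT-549 cells, with the same direction in 111 (77.1%) and 108 (89.3%). Of all calls, 74.9% in DU-145 and 35.5% in BT-549 cells were opening. Neighbours share their locus, and the pairs were not tested.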

How the data were processed

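ATAC-seq was measured in 12 libraries of DU-145 and BT-549 cells. The authors used bwa-mem for alignment to GRCh38 and Picard against duplicates, and called peaks per library by MACS2 2.2.7.1 at a q-value of 0.05. They merged the peaks into accessible regions found in at least 3 replicates of a line, whatever the treatment, and cut these into 100-bp bins. The values deposited per bin are mean fragment coverages, treated as estimated counts without depth scaling, and were rounded to whole numbers. The deposited peak lists give a fold enrichment ratio, a −log10 p-value and a −log10 q-value per peak. The strongest peaks were ranked by p-value, then by fold enrichment.

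Bins with a total of at least 10 were fitted per line, 3 against 3 libraries, with edgeR 4.0.16 (TMM factors, robust quasi-likelihood test) in R 4.3.3, with Benjamini-Hochberg adjustment over all bins tested. All 12584 regions passed this filter in both lines. The limits of the calls were the study's. Differences between the lines came from a joint fit of all 12 libraries on shared bins. For normalized coverage, bin values were divided by the TMM-scaled library size and multiplied by the mean of these sizes over the libraries of the line. DESeq2 1.42.0, limma-trend 3.58.1 (pseudocount 1), other scalings, a replicate block and leaving out each library were alternatives.

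Named were the 4 regions with the largest change opening and the 4 closing in both lines, the 2 largest differences of each sign among opposite calls, the 3 largest changes of each kind per line (all of these with a mean normalized coverage of at least 20 in the higher group of each line concerned and no overlap), the 4 with the highest vehicle coverage, up to 3 regions with the smallest adjusted p of each of 10 gene lists, and all regions nearest NOTCH1, EGR1, LY6E, JUN and MUC1, which had none. Members and lists were chosen with earlier results of these data known. The main fits did not pair the libraries by replicate number, and whether the numbers mark pairs is not known from the labels.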

Additional observations from a re-analysis of the deposited data

Results flagged for a closer look

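The lines differed in the DOX effect, by the interaction in edgeR's quasi-likelihood test at an adjusted p under 0.05, in 477 regions where the effect was higher and in 3203 where it was lower in BT-549 than in DU-145 cells. The named regions below passed the same test, with fitted effects of opposite sign in the lines. Within the lines, both effects had an adjusted p under 0.05 by edgeR's quasi-likelihood test only at MATN2, DDR2, AOAH, PTPRC, BOD1L1, HES1 and CAPN2. Elsewhere the effect in 1 line did not pass, so its sign is uncertain. At TMIGD3, 1 BACH1 region, KLF4 and TGFB2 the effect in 1 line was near 0. The values are BT-549 minus DU-145 differences of log2 fold changes, read at the shared bin with the highest mean.

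Differences below 0 were fitted at MATN2 (-5.54), DDR2 (-5.14), KCTD16 (-5.55), IRF1 (-4.44) and TNC (-3.48). At INHBA the difference was -2.97 for the region 778109 bp away, at BACH1 -2.80 and -1.66, at NFKBIZ -2.66, at ATF3 -2.40 and at KLF4 -2.26. At SLC12A2 (-6.89), TMIGD3 (-5.50) and AOAH (-10.1) 1 group was near 0, so that the size depends on the prior count of the fit and is no bound.

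Differences above 0 were fitted at PTPRC (4.04), BOD1L1 (4.02) and, with 1 group near 0, C6 (4.87). At JUN the difference was 2.61 for a region with low coverage in all groups, at TGFB2 2.01, at HES1 1.35, at CAPN2 0.76 and at RASA3 0.61.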

How the results depend on the processing

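Low depth of the BT-549 DOX libraries limits the low regions of that line. No named region called within a line changed sign there under these alternatives. Of the values over all regions under the alternatives, 192 stayed within their limits and 30 moved. Counts stayed if their ratio to the main count was inside a fixed range, whatever the balance of directions. The vehicle contrast with the GC trend removed also stayed, with 2460 higher and 2826 lower in place of 3245 and 2238. Some values could not move, such as the BT-549 counts at an adjusted p under 0.01, which was the main setting there. DESeq2 and limma-trend called 509 and 531 opening and 248 and 182 closing regions in DU-145 cells. In BT-549 cells DESeq2 called 343 opening and 344 closing, and limma-trend 318 and 627. In both lines, DESeq2 and limma-trend called 57 and 59 opening and 32 and 27 closing. DESeq2 gave no adjusted p to 130 of the 1633 DU-145 and 132 of the 1374 BT-549 calls, and kept 753 and 684. The cause of the other losses was not tested. At an adjusted p under 0.01, 1950 opened in DU-145 cells. At an adjusted p under 0.05 with no fold limit, 3307 opened and 2026 closed in DU-145, 842 and 1562 in BT-549 and 432 and 406 in both lines. Over 10 kb from any TSS, fewer regions remain by construction, and 253 closed in DU-145 and 550 in BT-549 cells. Summed over bins, 212 opened in both. With the strongest peaks alone, the shares with a peak were 43.2%, 45.4% and 68.1% in DU-145 vehicle, DU-145 DOX and BT-549 vehicle libraries. With the summit inside the region the BT-549 vehicle share was 93.9%. In 100-bp windows 20.3% held AP-1 and 4.76% CTCF. Leaving out 1 library gave 676 to 1156 opening (676 without DU-145 vehicle replicate 2) and 320 to 399 closing in DU-145, 364 to 473 opening and 487 to 846 closing in BT-549 (487 without DOX replicate 3), and 103 to 140 opening and 61 to 89 closing in both. With library totals, opening made up 83.0% in place of 74.9% of the DU-145 calls, and 66.7% with the GC trend removed. With the replicate number as a block, 1213 opened and 409 closed in DU-145 and 481 and 832 in BT-549 cells. Same-numbered libraries deviated with correlations of -0.05 to 0.09 in DU-145 and -0.0006 to 0.05 in BT-549 cells. For libraries of different numbers they were -0.14 to 0.07 and -0.05 to 0.03. Such correlations cannot tell whether libraries were prepared in pairs. Of the values of named regions, 67 lost a call and 19 gained one. The other 2234 kept their state, which includes regions that were not called in either setting. Beside those given above, calls were lost with DESeq2 at ZC3H11B, HAS2 and SLC12A2 in DU-145 and GALNT15, PTPRC, BOD1L1 and USP24 in BT-549 cells, with both DESeq2 and limma-trend at PTPN1, TGFB2 and 1 NFKBIZ region in DU-145 cells, and with loess offsets at CDC42EP3 and 1 CAPN2 region in DU-145 and HES1 in BT-549 cells. Read at the same bin in both lines, the calls at ZC3H11B, TEK, NOTCH1 and CDC42EP3 in DU-145 cells were lost, and with bins summed those at MATN2 in BT-549 cells, at NOTCH1 in DU-145 and at 1 CAPN2 region in each line.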
